A study of Mus musculus with 40 samples.

Results

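Double point mutant embryos, in which both lysine acetyltransferases KAT6A and KAT6B carry a glycine-to-glutamate change in their catalytic domain, were compared with embryos that lack KAT6B, to ask how far transcription differs between loss of the acetylation activity of both proteins and loss of 1 whole protein. The 8 libraries were chosen by their genotype labels out of 40 in the series, 4 of *Kat6a* G656E/G656E, *Kat6b* G577E/G577E embryos (*Kat6aE/E;Kat6bE/E* below) and 4 of *Kat6a* WT, *Kat6b* dec/dec embryos (*Kat6b-/-* below). All were whole mouse embryos at E9.5, so a gene's count sums every tissue, and fewer cells of a type cannot be told apart from less RNA per cell. Neither genotype carried a transgene or Cre. The *Kat6b* dec allele is a germline deletion of a run of exons, kept on a C57BL/6 background per the study's methods, and the E alleles were made by Cas9 editing in C57BL/6J embryos and backcrossed. *Nnt*, part of which is deleted in C57BL/6J, was at 44.8 to 60.5 CPM (counts scaled to the library total) in *Kat6aE/E;Kat6bE/E* and 50.7 to 55.4 CPM in *Kat6b-/-* (log2 fold change 0.13, FDR=0.352), and counts over the whole gene include the exons that this deletion leaves, so whether the arms differ in substrain was not tested. Libraries of 4 further E9.5 genotypes (WT, *Kat6a-/-*, *Kat6aE/E* and *Kat6bE/E*, 4 each) entered the same model, which thus shared 1 estimate of the spread over 24 libraries.

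KAT6A and KAT6B are the catalytic subunits of complexes with BRPF proteins, ING4 or ING5 and MEAF6, and acetylate histone H3. In the embryo KAT6A is known for the positions of *Hox* expression along the body axis and for heart and palate development, and KAT6B for brain development. Both mutated glycines lie in the part of the MYST domain that binds acetyl-CoA. The exon sequence around each mutated codon is shown because it defines the double mutant, as the unmutated reference in GRCm39 (GENCODE vM39 exons) with the codon in capitals.
*Kat6a*, codon of the G656E change, exon 13 of 18, chr8:23416429-23416486, strand +: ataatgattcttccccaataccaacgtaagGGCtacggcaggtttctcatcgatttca
*Kat6b*, codon of the G577E change, exon 12 of 17, chr14:21687651-21687708, strand +: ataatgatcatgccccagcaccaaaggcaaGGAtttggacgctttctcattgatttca
The paralogous windows share 42 of 58 positions, and both codons, GGC and GGA, encode glycine.

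Library totals ranged from 14678249 to 17759715 counts in *Kat6aE/E;Kat6bE/E* and from 8401990 to 21929384 in *Kat6b-/-*. The *Kat6aE/E;Kat6bE/E* embryos came from 3 litters, with replicates 1 and 3 from the same litter, and the *Kat6b-/-* embryos from 4 other litters, so genotype and litter cannot be told apart in this comparison beyond what the random litter term allows. Some libraries stood apart. The study describes the embryos as male, but *Xist*, which is transcribed from the inactive X chromosome, was at 636 and 755 CPM in *Kat6b-/-* replicates 2 and 3 and at 527 CPM in *Kat6a-/-* replicate 2, against at most 0.514 CPM in the other 21 E9.5 libraries. The Y-linked genes *Ddx3y*, *Eif2s3y*, *Kdm5d* and *Uty* summed to at most 4 counts in these 3 libraries and to at least 1453 counts in each of the others. By these genes 2 of the 4 *Kat6b-/-* libraries did not match the stated sex, whereas all 4 *Kat6aE/E;Kat6bE/E* libraries did. Separately, *Kat6aE/E;Kat6bE/E* replicate 2 had the highest level of 24 libraries for 20 of the 24 genes higher in *Kat6aE/E;Kat6bE/E*, and its mean distance to the other *Kat6aE/E;Kat6bE/E* libraries, 1.67, exceeded that of the other 7 libraries to their own genotype (1.19 to 1.38). Here distance means the quadratic mean over the 500 genes with the greatest log2 difference in a pair of libraries. Values are therefore also given without *Kat6aE/E;Kat6bE/E* replicate 2 and without the 3 libraries with high *Xist*.

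At a false discovery rate (FDR) under 0.05, 30 of 14183 genes differed, 24 higher in *Kat6aE/E;Kat6bE/E* (0.169% of genes tested) and 6 lower (0.0423%). At an unadjusted p under 0.05 there were 850 genes higher (5.99%) and 662 lower (4.67%). The changes were small, the median size on the log2 scale being 0.42, and 22 of the 30 were below 1.5-fold. Without *Kat6aE/E;Kat6bE/E* replicate 2, 4 of the 30 genes passed the threshold (*Commd3* and *Bmi1* higher, *Kat6b* and *Uncx* lower), and without the 3 libraries with high *Xist* only *Bmi1* did. With a term for high *Xist* in the limma model 0 genes passed, with 1009 at an unadjusted p under 0.05. Without surrogate variables (covariates estimated from the data for unlabelled variation) *Commd3* alone passed in limma, 0 genes in edgeR (1094 at an unadjusted p under 0.05) and 10 in DESeq2. In the plot of calls by model, the count ranged from 0 to 78.

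**Figure D1:**
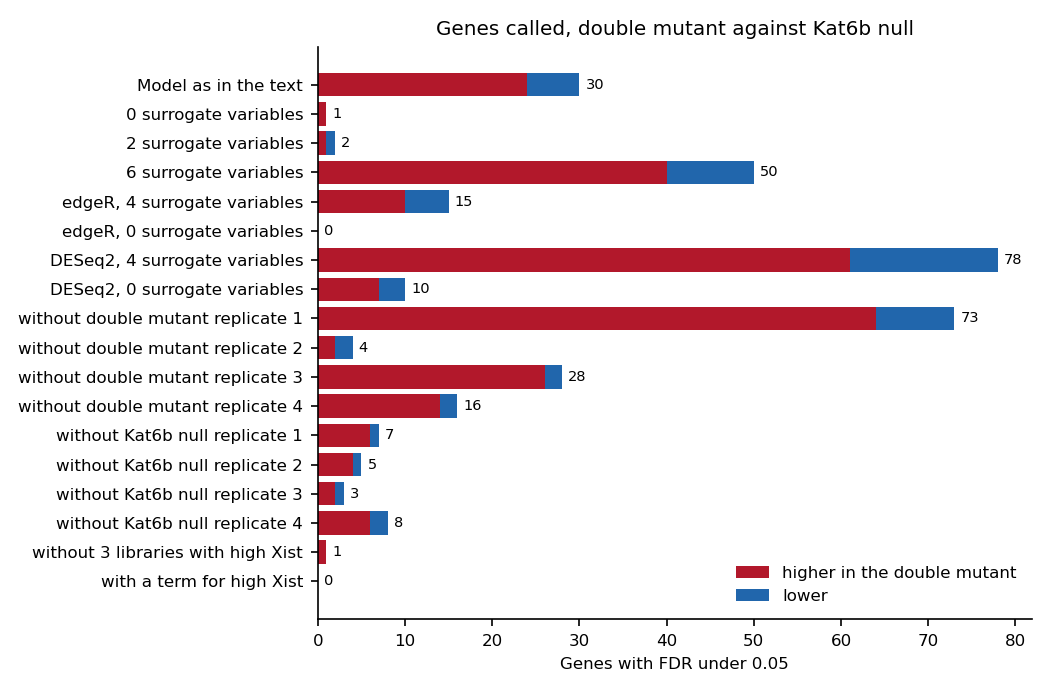
Number of genes with FDR under 0.05 between *Kat6aE/E;Kat6bE/E* and *Kat6b-/-* (horizontal axis) in the model of the text and in alternatives (rows), split into genes higher (red) and lower (blue) in the double mutant, with the total beside each bar. The 30 calls of the model became 4 without double mutant replicate 2, 1 without the 3 libraries with high *Xist* and 78 with DESeq2 and 4 surrogate variables.

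Without surrogate variables the genotypes did not separate beyond the spread between embryos. The mean distance was 1.37 between *Kat6aE/E;Kat6bE/E* and *Kat6b-/-* libraries, 1.41 within *Kat6aE/E;Kat6bE/E* and 1.29 within *Kat6b-/-*, an excess of 0.019 over the mean within genotypes (one-sided exact permutation test over 35 splits, p=0.286, where no split can give less than 0.0286). With the *Xist*-high *Kat6b-/-* replicates left out, the excess was 0.047 (exact permutation p=0.2 over 15 splits). In 4 of the 8 libraries the mean distance to the other genotype was below that to their own, at 1.15 against 1.30 in *Kat6aE/E;Kat6bE/E* replicate 1, 1.26 against 1.35 in replicate 3, 1.298 against 1.306 in replicate 4 and 1.3005 against 1.312 in *Kat6b-/-* replicate 3. The own-genotype means of these *Kat6aE/E;Kat6bE/E* libraries include the distant replicate 2. Without replicate 2 the mean distance was 1.14 within *Kat6aE/E;Kat6bE/E*, below the 1.24 between genotypes. The excess was then 0.022 (exact permutation p=0.229).

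*Commd3* and *Bmi1* were the neighbouring genes that held up best. BMI1 is a core subunit of Polycomb repressive complex 1, which maintains gene silencing, and COMMD3 belongs to a family of proteins of the COMMANDER complex in endosomal recycling. In GRCm39 *Commd3* lies at chr2:18677221-18681045 and *Bmi1* at chr2:18681292-18691441, both on the plus strand with 246 bases between them. The unstranded libraries do not separate transcripts that run from *Commd3* into *Bmi1*. Nor do they separate an antisense lncRNA gene that overlaps some part of the stretch from *Commd3* to *Bmi1*. *Commd3* was at 31.9, 29.2, 33.3 and 34.2 CPM in *Kat6aE/E;Kat6bE/E* and at 26, 19.4, 22 and 22.1 CPM in *Kat6b-/-*. All 4 *Kat6aE/E;Kat6bE/E* libraries were above all 4 *Kat6b-/-* libraries, with WT at 23 ± 1.77 CPM (SD, n=4) beside *Kat6b-/-*. The log2 fold change was 0.57 (SE 0.067, FDR=8.59e-05), a 1.48-fold higher level. It was 0.58 without *Kat6aE/E;Kat6bE/E* replicate 2 (FDR=0.000671) and 0.48 without the *Xist*-high libraries (FDR=0.105). *Commd3* passed the threshold in 39 of 47 alternative models, and its log2 fold change ranged from 0.40 to 0.62 over them.

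*Bmi1* was at 123, 99.8, 124 and 112 CPM in *Kat6aE/E;Kat6bE/E* and at 84, 98, 90.6 and 93.5 CPM in *Kat6b-/-*. The groups did not overlap, with *Kat6aE/E;Kat6bE/E* replicate 2 the lowest of its group, as it was for *Commd3*. The log2 fold change was 0.34 (SE 0.058, FDR=0.0124), and it was 0.38 without *Kat6aE/E;Kat6bE/E* replicate 2 (FDR=0.0144) and 0.39 without the *Xist*-high libraries (FDR=0.0106). It ranged from 0.29 to 0.44 over the 47 alternatives and passed in 37. The level was 93.4 ± 2.75 CPM in WT and 92.3 ± 5.8 CPM in *Kat6bE/E*, and 115 ± 5.18 CPM in *Kat6aE/E* (log2 fold change 0.30 to WT, FDR=0.0182). In *Kat6a-/-* *Bmi1* was at 101 ± 10.3 CPM (log2 fold change 0.11 to WT, FDR=0.369) and *Commd3* at 31.2 ± 4.03 CPM (log2 fold change 0.33, FDR=0.0129). The genes to either side of the pair did not pass the threshold between *Kat6aE/E;Kat6bE/E* and *Kat6b-/-*. *Dnajc1* had a log2 fold change of 0.16 (FDR=0.36), *Mllt10* of 0.05 (FDR=0.712), *Skida1* of -0.20 (FDR=0.361) and *Pip4k2a* of -0.05 (FDR=0.852).

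The promoter windows of the pair are shown because both genes were higher in *Kat6aE/E;Kat6bE/E* than in *Kat6b-/-*. They come from a RefSeq table (GRCm38.p6) and run from 250 bases before to 50 after the start in that table. Each sequence had 1 exact match in GRCm39, whose coordinates are given. The *Bmi1* window lies wholly inside the GENCODE gene given above, so RefSeq and GENCODE place its start differently. Capitals mark ACGTG or GCGTG on either strand, the core letters of the site bound by hypoxia-inducible factors and a part of the E-box CACGTG, which holds ACGTG on both strands.
*Commd3*, chr2:18676996-18677295, strand +: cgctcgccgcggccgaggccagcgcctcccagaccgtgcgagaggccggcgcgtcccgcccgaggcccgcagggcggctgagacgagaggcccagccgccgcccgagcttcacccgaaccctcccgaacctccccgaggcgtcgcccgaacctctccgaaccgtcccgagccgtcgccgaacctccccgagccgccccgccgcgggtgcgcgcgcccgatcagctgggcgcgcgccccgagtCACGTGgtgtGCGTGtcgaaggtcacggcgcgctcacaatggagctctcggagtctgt
*Bmi1*, chr2:18681579-18681878, strand +: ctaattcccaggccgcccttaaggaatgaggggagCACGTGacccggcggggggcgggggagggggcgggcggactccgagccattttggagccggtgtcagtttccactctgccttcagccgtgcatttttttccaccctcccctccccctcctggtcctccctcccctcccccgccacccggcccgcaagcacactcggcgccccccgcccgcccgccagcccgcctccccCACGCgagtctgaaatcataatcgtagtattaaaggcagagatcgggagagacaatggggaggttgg
Of 32851 promoter windows of this length 43.8% held at least 1 such match, so a match in a single window is common. Each window of the pair held 3 matches, and the share of windows with 3 or more was not computed.

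*Uncx*, a homeobox gene of the caudal part of each somite, had the lowest p among genes lower in *Kat6aE/E;Kat6bE/E*. It was at 6.39, 11.3, 8.06 and 5.86 CPM in *Kat6aE/E;Kat6bE/E* and at 19.7, 14.8, 16 and 10.8 CPM in *Kat6b-/-*, so that *Kat6aE/E;Kat6bE/E* replicate 2 lay above *Kat6b-/-* replicate 4 and the groups overlapped. The log2 fold change was -1.09 (SE 0.18, FDR=0.0124), a 2.13-fold lower level. It was -1.12 without *Kat6aE/E;Kat6bE/E* replicate 2 (FDR=0.0385) and -1.08 without the *Xist*-high libraries (FDR=0.221). WT, at 14.7 ± 2.17 CPM, and *Kat6bE/E*, at 13.4 ± 0.932 CPM, were near *Kat6b-/-* (15.3 ± 3.67 CPM), and *Kat6a-/-* was at 8.86 ± 1.77 CPM.

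**Figure D2:**
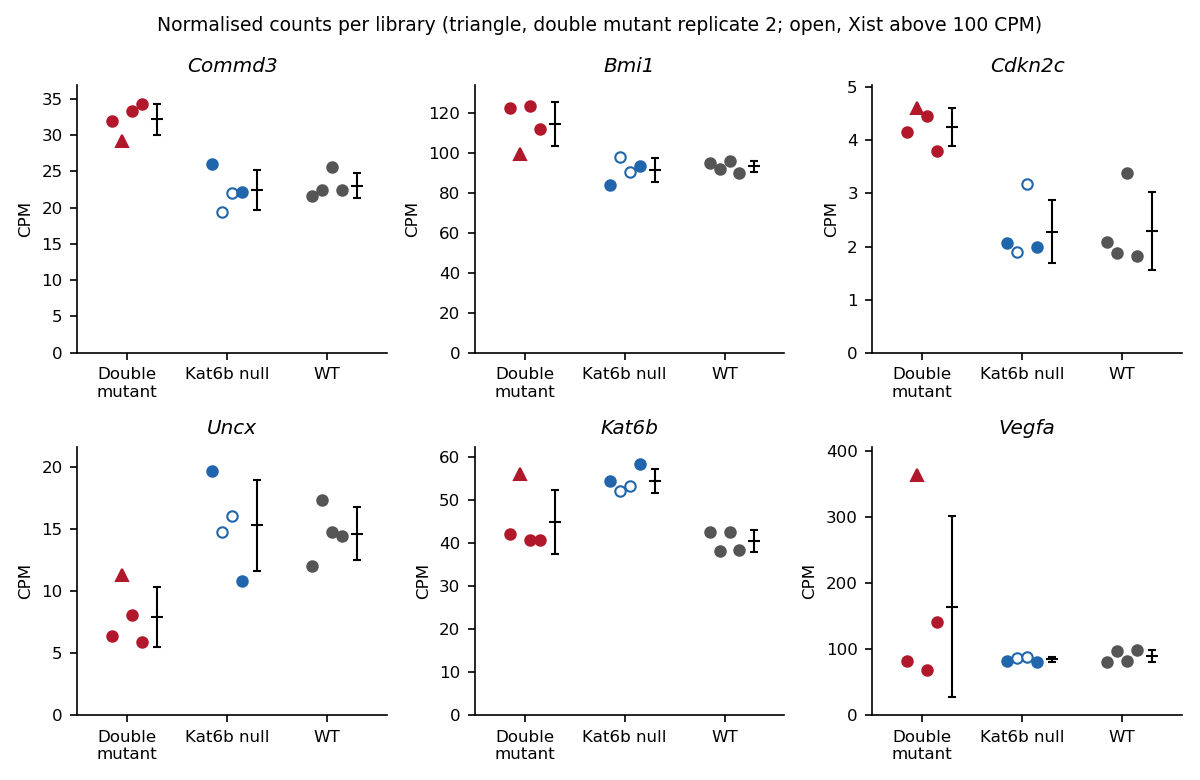
CPM (vertical axes, from 0) of 6 genes in each double mutant, *Kat6b-/-* and WT library (points, n=4 each; black marks show mean ± SD). Triangles mark double mutant replicate 2 and open points the libraries with *Xist* above 100 CPM; the groups do not overlap in *Commd3*, *Bmi1* and *Cdkn2c*, and double mutant replicate 2 stands at 364 CPM in *Vegfa*.

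The somite list leaned the same way, although *Uncx* alone passed the threshold. Of 21 genes listed 18 were tested, 16 with a negative and 2 with a positive log2 fold change, and 7 had an unadjusted p under 0.05, all lower (4.67% of all genes). The median log2 fold change was -0.37, against -0.002 over all genes, and it was -0.37 without *Kat6aE/E;Kat6bE/E* replicate 2 (6 lower at p under 0.05; 3.29% of all genes there) and -0.41 without the *Xist*-high libraries (6 lower; 2.56% of all genes there). *Meox1*, a homeobox gene of the dermomyotome and sclerotome, was at 75.1, 84.8, 76 and 66.7 CPM in *Kat6aE/E;Kat6bE/E* and at 132, 103, 102 and 96.7 CPM in *Kat6b-/-*. These ranges did not overlap, which held for 1.38% of all genes in this direction, yet its log2 fold change of -0.52 had FDR=0.19. *Tcf15*, which drives epithelial somite formation, had a log2 fold change of -0.35 (FDR=0.263). The summed level of the list was 279 to 344 CPM in *Kat6aE/E;Kat6bE/E*, 345 to 456 CPM in *Kat6b-/-* and 340 to 373 CPM in WT. *Kat6b-/-* replicate 1 gave the 456 CPM, the highest of 24 libraries, and the other *Kat6b-/-* libraries were at 345 to 372 CPM. No median of the list is given without this library.

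The *Hox* genes, which specify position along the body axis, were tilted to lower values in *Kat6aE/E;Kat6bE/E* as well. None of the 38 tested genes (of 39) passed the threshold in limma, but 13 had an unadjusted p under 0.05 and all 13 were lower (4.67% of all genes), 31 had a negative log2 fold change, and the median was -0.17. Without *Kat6aE/E;Kat6bE/E* replicate 2 the median was -0.18 with 5 lower at p under 0.05 (3.29% of all genes there), and without the *Xist*-high libraries it was -0.22 with 7 lower (2.56% of all genes there). *Hoxa9* was at 6.68, 9.49, 5.38 and 7.54 CPM in *Kat6aE/E;Kat6bE/E* and at 11.8, 11, 9.32 and 10.4 CPM in *Kat6b-/-* (log2 fold change -0.62, SE 0.17, FDR=0.172). *Hoxc9* was at 12.6 to 14.6 CPM in *Kat6aE/E;Kat6bE/E* and at 17 to 20.5 CPM in *Kat6b-/-*, without overlap (log2 fold change -0.38, FDR=0.21). Against WT the genes differed in which arm stood apart. The log2 fold change to WT was 0.62 in *Kat6b-/-* and 0.01 in *Kat6aE/E;Kat6bE/E* for *Hoxa9*, with WT replicate 4 at 2.84 CPM and the other WT libraries at 6.4 to 8.15 CPM. For *Hoxc9* it was 0.53 in *Kat6b-/-* (FDR=0.0461) and 0.15 in *Kat6aE/E;Kat6bE/E*. WT replicate 4 was again lowest, at 7.88 CPM, with the other WT libraries at 9.51 to 16 CPM. For *Hoxa2* the log2 fold change to WT was -0.15 in *Kat6b-/-* and -0.41 in *Kat6aE/E;Kat6bE/E* (FDR=0.0318), and for *Hoxb3* -0.11 and -0.37 (FDR=0.092). Between *Kat6aE/E;Kat6bE/E* and *Kat6b-/-*, *Hoxa5* had a log2 fold change of -0.31 (FDR=0.172). The summed level of the 39 *Hox* genes was 721 to 1030 CPM in *Kat6aE/E;Kat6bE/E*, 900 to 1120 CPM in *Kat6b-/-* and 677 to 959 CPM in WT. *Kat6b-/-* replicate 1 gave the 1120 CPM, and the other *Kat6b-/-* libraries were at 900 to 936 CPM. No median of the *Hox* list is given without replicate 1. The lowest WT sum was that of WT replicate 4, which had almost no RNA of several posterior *Hox* genes. In it *Hoxc10* was at 0.429 CPM, with the other WT libraries at 12.6 to 29.7 CPM. *Hoxd11* was at 0.214 CPM there and at 9.08 to 24.3 CPM in the other WT libraries. The contrasts to WT include this library, and why it differed was not tested.

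Of the 24 genes called higher, 5 were on the list of genes induced by low oxygen. Without *Kat6aE/E;Kat6bE/E* replicate 2 none of the 5 passed the threshold in limma. In that fit 11 of the 30 list members had an unadjusted p under 0.05 (3.57% of all genes there). The list holds 30 hypoxia response and glycolysis genes, targets of hypoxia-inducible factors that raise glycolysis and blood vessel growth. Of these, 5 were called higher (*P4ha2*, *Pfkl*, *Egln1*, *Higd1a* and *Vegfa*), beside 0.169% of all genes. All 30 had a positive log2 fold change, 25 with an unadjusted p under 0.05 (5.99% of all genes), with a median of 0.38. *Vegfa*, the main growth factor for blood vessels, was at 82.5, 364, 67.5 and 141 CPM in *Kat6aE/E;Kat6bE/E* and at 82.2, 86.8, 88.5 and 80.5 CPM in *Kat6b-/-*. Replicates 1 and 3, the littermates, thus lay within or below the *Kat6b-/-* range, replicate 4 above it, and replicate 2 at more than all others. The fitted log2 fold change of 0.37 (SE 0.077, FDR=0.0495) fell to 0.18 without replicate 2 (FDR=0.884) and turned to -0.15 without replicates 2 and 4.

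The same order of libraries held across the list. In *Kat6aE/E;Kat6bE/E* replicate 2 each of the 30 genes was at its highest level of 24 libraries, and their summed level was 15318 CPM, against 8422 CPM in replicate 4 and 6733 and 6726 CPM in replicates 1 and 3. It was 6197 to 6680 CPM in *Kat6b-/-* and 5960 to 7349 CPM in WT. Of the 30 genes, *Kat6aE/E;Kat6bE/E* replicate 4 was above all 4 *Kat6b-/-* libraries in 28, replicate 1 in 8 and replicate 3 in 7. Without replicate 2, 28 of 30 log2 fold changes stayed positive, 11 had an unadjusted p under 0.05 (3.57% of all genes there), and the median was 0.22. Without the *Xist*-high libraries 20 were at p under 0.05 and higher (3.78% of all genes there), with a median of 0.31. The surrogate variables took up part of replicate 2. In an unweighted fit its share of the weight on the double mutant side of the contrast was 13.6%, against 26.3% to 30.3% for each of the other 3 libraries.

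*Egln1*, the oxygen sensor that marks hypoxia-inducible factors for destruction, was at 116, 303, 120 and 160 CPM in *Kat6aE/E;Kat6bE/E* and at 105 to 124 CPM in *Kat6b-/-* (log2 fold change 0.37, FDR=0.0434). *Pfkl*, the liver type of the glycolytic enzyme phosphofructokinase, was at 517, 1033, 475 and 650 CPM in *Kat6aE/E;Kat6bE/E* and at 438 to 462 CPM in *Kat6b-/-* (log2 fold change 0.39, FDR=0.0284). *Higd1a*, a mitochondrial protein induced by hypoxia, was at 28.2, 55.3, 30.6 and 32.8 CPM in *Kat6aE/E;Kat6bE/E* and at 23 to 27 CPM in *Kat6b-/-* (log2 fold change 0.37, FDR=0.0481). In *Pfkl* and *Higd1a* the groups did not overlap even in the littermates, as for 1.78% of all genes in this direction. *P4ha2*, a collagen prolyl hydroxylase subunit, was at 27.9, 111, 32.5 and 46.3 CPM in *Kat6aE/E;Kat6bE/E* and at 22.5 to 32.6 CPM in *Kat6b-/-* (log2 fold change 0.52, FDR=0.0213).

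**Figure D3:**
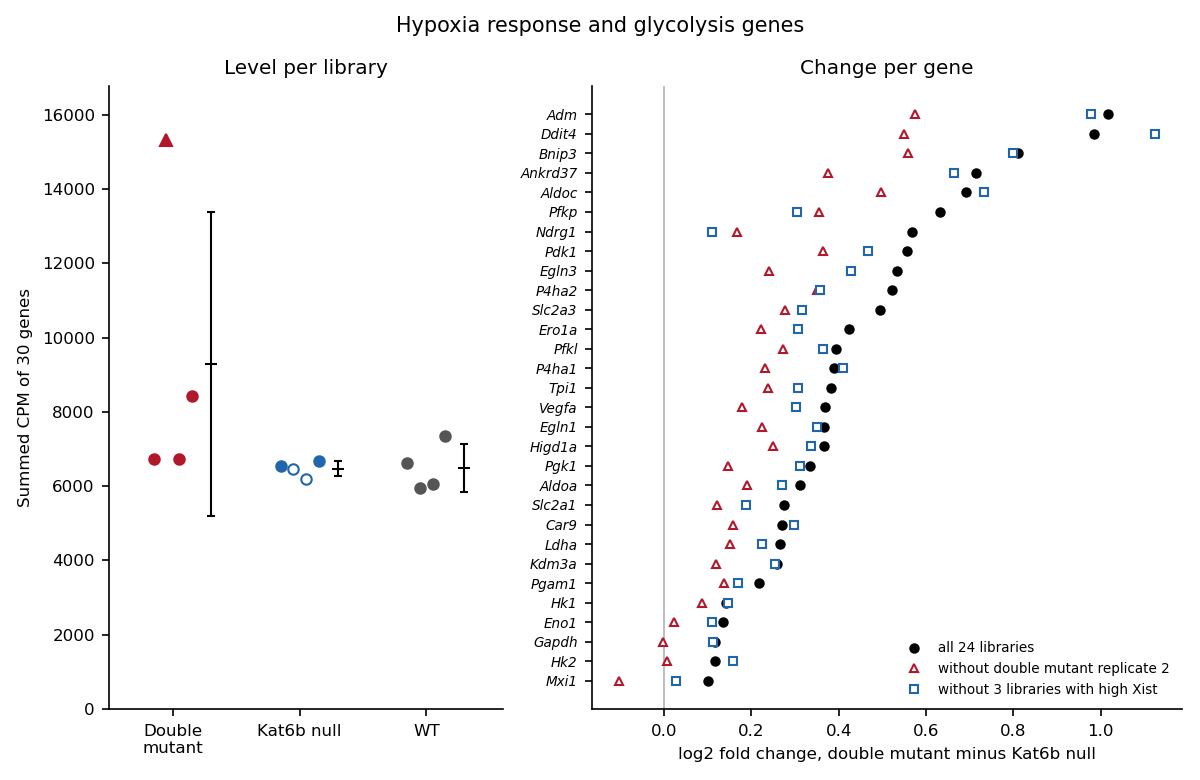
Left, summed CPM of 30 hypoxia response and glycolysis genes in each library (points, n=4 per genotype; black marks, mean ± SD; triangle, double mutant replicate 2; open, *Xist* above 100 CPM). Right, log2 fold change of each gene between double mutant and *Kat6b-/-* with all 24 libraries (black), without double mutant replicate 2 (red triangles) and without the 3 libraries with high *Xist* (blue squares); replicate 2 reached 15318 CPM and the median change fell from 0.38 to 0.22 without it.

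The promoter windows of *P4ha2*, *Pfkl*, *Egln1* and *Higd1a*, the called list members with a single window in the table, are shown since these genes moved together, with the same letters in capitals.
*P4ha2*, chr11:53991500-53991799, strand +: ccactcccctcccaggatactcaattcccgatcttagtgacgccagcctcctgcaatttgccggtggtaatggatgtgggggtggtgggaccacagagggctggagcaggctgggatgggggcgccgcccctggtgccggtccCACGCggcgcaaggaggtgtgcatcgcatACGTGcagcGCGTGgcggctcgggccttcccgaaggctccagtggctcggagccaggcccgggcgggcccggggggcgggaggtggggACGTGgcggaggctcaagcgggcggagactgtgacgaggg
*Pfkl*, chr10:77845592-77845891, strand -: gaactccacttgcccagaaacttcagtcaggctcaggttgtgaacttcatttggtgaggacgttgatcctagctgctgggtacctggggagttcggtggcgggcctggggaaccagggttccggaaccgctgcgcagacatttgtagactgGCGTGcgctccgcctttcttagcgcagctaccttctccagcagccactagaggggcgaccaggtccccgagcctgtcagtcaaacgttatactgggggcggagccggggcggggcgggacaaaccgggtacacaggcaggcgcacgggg
*Egln1*, chr8:125675944-125676243, strand -: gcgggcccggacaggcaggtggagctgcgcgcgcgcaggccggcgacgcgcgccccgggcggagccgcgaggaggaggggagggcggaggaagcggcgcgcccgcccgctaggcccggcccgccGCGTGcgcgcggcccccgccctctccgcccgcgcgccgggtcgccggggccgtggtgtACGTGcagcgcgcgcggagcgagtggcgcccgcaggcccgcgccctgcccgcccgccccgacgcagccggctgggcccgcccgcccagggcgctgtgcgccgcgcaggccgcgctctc
*Higd1a*, chr9:121686813-121687112, strand -: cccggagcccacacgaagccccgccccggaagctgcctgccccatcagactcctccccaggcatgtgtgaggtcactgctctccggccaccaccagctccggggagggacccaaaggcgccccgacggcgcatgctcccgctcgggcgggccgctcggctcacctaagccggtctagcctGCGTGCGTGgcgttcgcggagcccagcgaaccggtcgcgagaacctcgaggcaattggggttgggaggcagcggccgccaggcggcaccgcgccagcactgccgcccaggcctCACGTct
*P4ha2* held 4 matches (4 or more were in 3.86% of all promoter windows), *Higd1a* 3, *Egln1* 2 and *Pfkl* 1. The *Pfkl* and *Egln1* windows, set by the RefSeq start, lie wholly inside the genes as annotated in GENCODE.

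Outside this list, further genes called higher followed the same library. *Ndufa4l2*, a mitochondrial protein induced by hypoxia, was at 2.59, 35.5, 2.43 and 3.43 CPM in *Kat6aE/E;Kat6bE/E* and at 1.03 to 1.7 CPM in *Kat6b-/-* (log2 fold change 1.56, FDR=0.034; 0.99 without replicate 2, FDR=0.415). *Gys1*, glycogen synthase, had a log2 fold change of 0.33 (FDR=0.0284), *Ppp1r3c*, which targets a phosphatase to glycogen, of 0.84 (FDR=0.0344) and *Pgm1*, phosphoglucomutase, of 0.58 (FDR=0.0481). *Ppp1r3c* stood at 5.42, 49.6, 5.57 and 9.41 CPM in *Kat6aE/E;Kat6bE/E* against 4.38 to 5.55 CPM in *Kat6b-/-*. The circadian repressors *Bhlhe41* (0.99, FDR=0.034) and *Ciart* (0.85, FDR=0.0344), the collagen cross-linking enzyme *Loxl2* (0.40, FDR=0.0146), the adenylate kinase *Ak4* (0.42, FDR=0.00739) and the glycolytic regulator *Pfkfb3* (0.50, FDR=0.0442) had their highest level in replicate 2 too, the values being log2 fold changes. *Ak4* was at 119, 223, 121 and 167 CPM in *Kat6aE/E;Kat6bE/E* and at 98.8 to 111 CPM in *Kat6b-/-*, without overlap. The receptor *Notch3* had a log2 fold change of 0.23 (FDR=0.011), the chloride transporter *Clcn3* of 0.30 (FDR=0.0284), *Fam162a* of 0.45 (FDR=0.0442) and *Prelid2* of 0.61 (FDR=0.0442). *Plekha2*, which lies 2.10 Mb from *Kat6a*, was at 29.8, 98, 28.5 and 44.5 CPM in *Kat6aE/E;Kat6bE/E* and at 22.5 to 28.1 CPM in *Kat6b-/-* (log2 fold change 0.56, FDR=0.0324). The log2 fold change was 0.36 without replicate 2 (FDR=0.568).

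*Cdkn2c*, *Emp1* and *Eid1* were also called higher. *Cdkn2c*, which encodes the cell cycle inhibitor p18INK4c, was at 4.15, 4.61, 4.46 and 3.8 CPM in *Kat6aE/E;Kat6bE/E* and at 2.07, 1.89, 3.17 and 2 CPM in *Kat6b-/-*. The groups did not overlap, and the log2 fold change was 0.82 (SE 0.18, FDR=0.0481), 0.85 without replicate 2 (FDR=0.232) and 0.93 without the *Xist*-high libraries (FDR=0.472). *Emp1*, an epithelial membrane protein, was at 22.3, 17.3, 26.6 and 18.4 CPM in *Kat6aE/E;Kat6bE/E* and at 14.9 to 18.4 CPM in *Kat6b-/-* (log2 fold change 0.43, FDR=0.0434), with replicate 2 the lowest of its group. *Eid1*, an inhibitor of the acetyltransferases p300 and CBP, was at 182 to 224 CPM in *Kat6aE/E;Kat6bE/E* and at 157 to 169 CPM in *Kat6b-/-* (log2 fold change 0.24, FDR=0.034).

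*Kat6b* itself was among the 6 lower genes. It was at 42, 56, 40.7 and 40.7 CPM in *Kat6aE/E;Kat6bE/E*, at 54.4, 52, 53.1 and 58.3 CPM in *Kat6b-/-* and at 40.5 ± 2.51 CPM in WT, so that *Kat6b-/-* had the higher level and *Kat6aE/E;Kat6bE/E* other than replicate 2 the level of WT. The log2 fold change was -0.33 (SE 0.064, FDR=0.0284), -0.38 without replicate 2 (FDR=0.0146) and -0.42 without the *Xist*-high libraries (FDR=0.105). Counts over a whole gene include the exons that the deletion leaves, so they do not check the genotype, and the point mutations cannot be seen in them. *Kat6a*, unmutated in *Kat6b-/-*, was at 170 ± 5.64 CPM in *Kat6aE/E;Kat6bE/E* and 181 ± 14.7 CPM in *Kat6b-/-* (log2 fold change -0.08, 95% interval -0.27 to 0.11, FDR=0.788). Of the 14 genes of the KAT6 complexes and MYST family only *Kat6b* passed. The tested neighbours of both genes, 7 near *Kat6b* and 8 near *Kat6a*, did not pass. Within 5 Mb of *Kat6b* none of 60 tested genes passed in limma (2 higher and 3 lower at an unadjusted p under 0.05), and within 5 Mb of *Kat6a* 1 of 56 did (*Plekha2*).

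The remaining lower genes were small or sparse changes. *Ppp1r10*, a nuclear regulator of protein phosphatase 1, was at 123, 101, 121 and 116 CPM in *Kat6aE/E;Kat6bE/E* and at 147, 141, 155 and 141 CPM in *Kat6b-/-*, without overlap (log2 fold change -0.33, FDR=0.0442). *Col27a1*, a cartilage collagen, was at 22.2 to 28.3 CPM in *Kat6aE/E;Kat6bE/E* and 30.9 to 36.5 CPM in *Kat6b-/-* (log2 fold change -0.39, FDR=0.0481), also without overlap. *Actb*, encoding cytoplasmic beta-actin, was at 2529 ± 295 CPM in *Kat6aE/E;Kat6bE/E* and 2839 ± 76.5 CPM in *Kat6b-/-* (log2 fold change -0.13, FDR=0.0495). *Adra1a*, the alpha-1A adrenergic receptor, was at 0.403, 1.17, 0.262 and 0.436 CPM in *Kat6aE/E;Kat6bE/E* and at 0.851, 1.26, 2.24 and 0.811 CPM in *Kat6b-/-*. At these low levels the log2 fold change was -1.66 (FDR=0.0442). The groups overlapped, and the highest values were those of the *Xist*-high *Kat6b-/-* replicates 2 and 3. Next in order and not called were *Rrm2* (-0.16, FDR=0.0522), *Tbc1d4* (-0.35, FDR=0.0623), *Wnt5a* (-0.27, FDR=0.0854) and *Kdm5c* (-0.30, FDR=0.0854). *Wnt5a*, a ligand of non-canonical Wnt signalling, was at 76.3 to 90.1 CPM in *Kat6aE/E;Kat6bE/E* and 91.8 to 121 CPM in *Kat6b-/-*, and its log2 fold change was -0.34 without the *Xist*-high libraries. *Kdm5c*, an X-linked gene that escapes X inactivation, was at 335 and 326 CPM in the *Xist*-high *Kat6b-/-* replicates 2 and 3 and at 256 and 267 CPM in replicates 1 and 4, with 229 to 281 CPM in *Kat6aE/E;Kat6bE/E*.

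Among the other gene lists, the 78 nuclear-encoded respiratory chain genes had 64 positive log2 fold changes and a median of 0.07 (14 higher and 1 lower at p under 0.05, beside 5.99% and 4.67% of all genes), with 0.06 without replicate 2 and 0.08 without the *Xist*-high libraries, and *Ndufv3* came nearest to a call (0.29, FDR=0.0623). The 11 T-box genes tested had a median of -0.13 (2 lower at p under 0.05, beside 4.67% of all genes), and *Tbx15* had a log2 fold change of -0.57 (FDR=0.43). Of 39 planar cell polarity and Wnt genes, 8 were higher and 3 lower at p under 0.05 (5.99% and 4.67% of all genes), with a median of 0.03. Of 15 Hedgehog genes 12 had negative values, and the median of the list was -0.08. *Cdon*, with the smallest p on the list, went the other way (log2 fold change 0.22, FDR=0.161). *Gli1*, a direct target of the pathway, had a log2 fold change of -0.25 (FDR=0.183). The visceral endoderm and early liver list had a median of 0.31 with 3 of 19 genes not overlapping and higher (1.78% of all genes), among them *Trf*, transferrin, at 15.5 to 19.2 CPM in *Kat6aE/E;Kat6bE/E* and 8.17 to 14.8 CPM in *Kat6b-/-* (log2 fold change 0.46, FDR=0.144).

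Several list medians changed sign without the *Xist*-high libraries. Cardiac transcription factor and sarcomere genes went from a median of 0.12 to -0.08, BMP and TGF-beta pathway genes from 0.06 to -0.01, decidua and maternal tissue genes from 0.09 to -0.12 and globin and erythroid genes from -0.38 to 0.16. Medians near 0 that changed sign too were those of the actin, endothelial, tubulin, chromatin partner and *Kat6a* neighbourhood lists. The globin and erythroid sum was 14525 CPM in *Kat6b-/-* replicate 3, an *Xist*-high library, against 4012 to 5748 CPM in the other *Kat6b-/-* libraries and 4709 to 7168 CPM in *Kat6aE/E;Kat6bE/E*. *Myl3*, a light chain of cardiac myosin, was at 54.6 to 67.2 CPM in *Kat6aE/E;Kat6bE/E* and 37.2 to 53.4 CPM in *Kat6b-/-* (log2 fold change 0.41, FDR=0.131). Trophoblast and decidua markers, of tissue around the embryo, were near 0. The trophoblast genes *Prl3d1* and *Tpbpa* had no count in any of the 8 libraries, which allows up to 3 counts in each, and with *Prl2c2* they summed to at most 0.047 CPM. Decidua markers summed to 0.979 to 1.57 CPM in *Kat6aE/E;Kat6bE/E* and 1.34 to 1.68 CPM in *Kat6b-/-*. Visceral endoderm or early liver markers summed to 21.6 to 33.3 CPM in *Kat6aE/E;Kat6bE/E*, 11.5 to 35.6 CPM in *Kat6b-/-* and 24.9 to 138 CPM in WT. The 138 CPM was that of WT replicate 4. Whether visceral endoderm was carried over with some embryos was not tested. Markers of the embryo's own tissues were present in all 8 libraries. Neural progenitor markers summed to 485 to 543 CPM in *Kat6aE/E;Kat6bE/E* and 415 to 553 CPM in *Kat6b-/-*, cardiac markers to 238 to 313 and 182 to 270 CPM, and somite markers to 85.5 to 114 and 123 to 173 CPM.

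**Figure D4:**
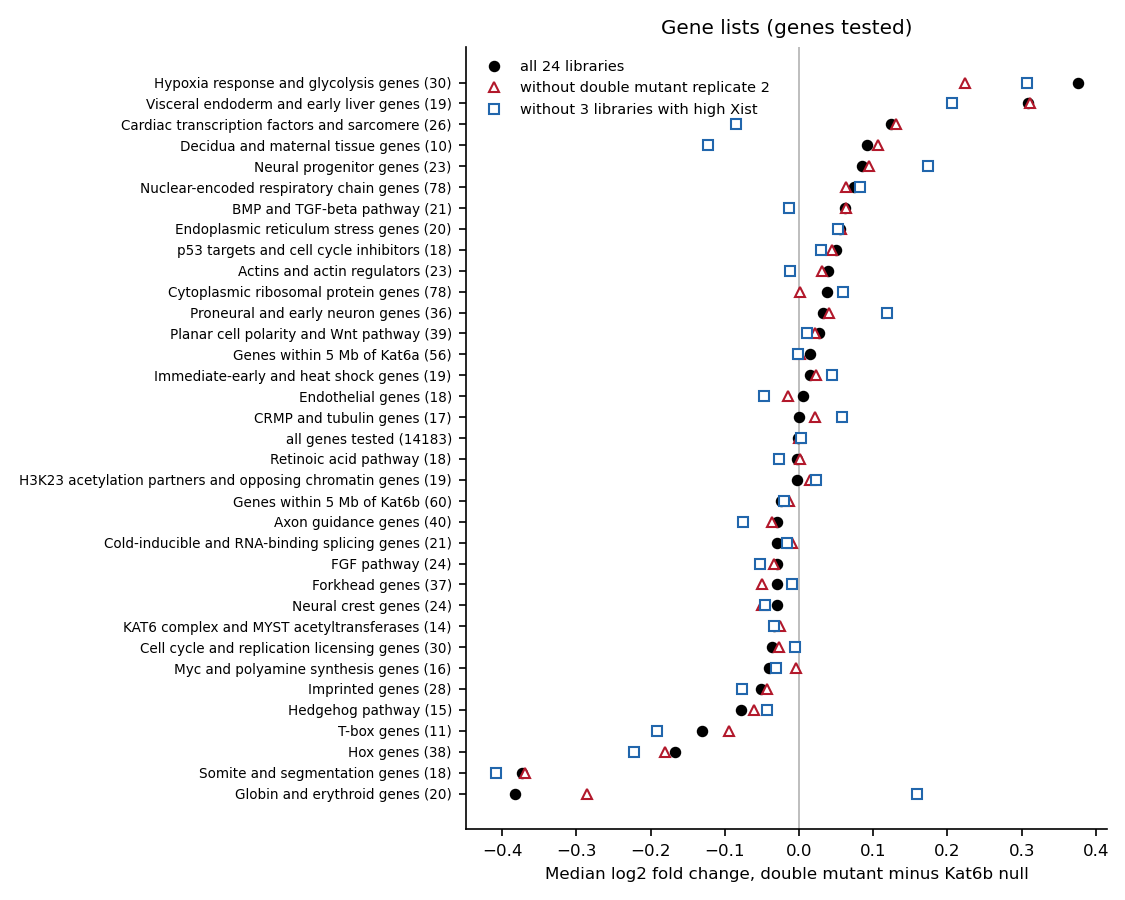
Median log2 fold change between double mutant and *Kat6b-/-* (horizontal axis) of each gene list with at least 10 tested genes (rows; number tested in parentheses), with all 24 libraries (black), without double mutant replicate 2 (red triangles) and without the 3 libraries with high *Xist* (blue squares). Hypoxia, somite and *Hox* lists keep their side of 0 in all 3 fits, and globin and cardiac lists change side without the libraries with high *Xist*. None of these fits leaves out *Kat6b-/-* replicate 1, the library with the highest summed *Hox* and somite levels.

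Since *Kat6aE/E;Kat6bE/E* embryos lack KAT6A acetylation activity and *Kat6b-/-* embryos have normal KAT6A, the genes that differed between *Kat6a-/-* and WT were read in this comparison. These 375 genes (2.64% of those tested) were defined on libraries of neither arm, although all came from 1 model and WT replicate 3 shares a litter with *Kat6b-/-* replicate 2, and the count was 102 to 210 without any 1 WT library. Of them 296 (78.9%) had the same sign here as in *Kat6a-/-*, beside 60.6% of all genes. At p under 0.05, 5.99% of all genes were higher here and 4.67% lower. Of the 179 genes higher in *Kat6a-/-*, 48 were higher and 2 lower at p under 0.05, with a median of 0.12. Of the 196 lower ones, 36 were lower and 6 higher, with a median of -0.06. This tilt was not seen when the *Xist*-high libraries, 1 of which is *Kat6a-/-* replicate 2, were left out. Then 422 genes differed between *Kat6a-/-* and WT, and 55.9% had the same sign, beside 55.3% of all genes. With a term for high *Xist* it was 49.5% of 459 genes, beside 52.3% of all. The 5 genes called in both comparisons, *Commd3*, *Loxl2*, *Plekha2*, *Emp1* and *Cdkn2c*, were higher in both, beside 0.169% of all genes called higher here. *Kat6aE/E* differed from WT in 39 genes (0.275%), of which 26 had the same sign here (66.7%, beside 57.0% of all genes).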

How the data were processed

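Whole E9.5 embryos were profiled by bulk RNA-sequencing (TruSeq v2, unstranded). The deposited values are counts of read pairs per RefSeq gene, made by the authors with Rsubread featureCounts after alignment to mm39. The files hold 26411 genes. Gene types came from a RefSeq table (GRCm38.p6; 52 genes without a match were left out), and positions from GENCODE vM39 (GRCm39).

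Following the study's methods, genes that are protein-coding and not Y-linked were kept if they passed filterByExpr (14183), scaled by TMM, and fitted over 24 libraries with 4 surrogate variables (wsva) by voomLmFit (edgeR 4.0.16) with litter as a random block (correlation 0.107), then robust moderation in limma 3.58.1 under R 4.3.3. P-values were adjusted by Benjamini-Hochberg across the genes tested (FDR). CPM values use TMM-scaled totals. DESeq2 1.42.0 served as an alternative. In simulated data with 200 genes changed, the model recovered 57% at a log2 change of 0.5 and 75% at 1, with 3 false calls among 14183 genes. The simulated counts were drawn independently, with no litter effect, no sex difference and no outlying library. The false calls therefore do not give the error rate of the model on the real libraries.

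The comparison, gene lists and naming rule (the 15 genes with the smallest p called in each direction, filled to 10 where fewer than 10 were called; for each list the called members, at most 5, and up to 3 by unadjusted p; *Kat6a*, *Kat6b* and their neighbours; *Xist*) were chosen with earlier results of these data known. The genes beside *Commd3* and *Bmi1*, *Hoxa2*, *Hoxb3*, *Fam162a*, *Prelid2*, *Pfkfb3*, *Pgm1* and *Emp1* were named after their values were seen. Where nothing states otherwise, each library is 1 embryo. Alternatives are given in the closing section. The E14.5 libraries and sequence reads were not used here.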

Additional observations from a re-analysis of the deposited data

Results flagged for a closer look

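In groups of 4 libraries a value was singled out where its gap to the nearest other exceeded Dixon's 95% critical value. Chance gives this in about 1 in 20 independent groups of normally distributed values. Of 78 groups, 10 were singled out. Many of the groups were genes named for their differences in these data, so this count cannot be read against that rate. In *Kat6aE/E;Kat6bE/E* replicate 2 these were *Ndufa4l2* (35.5 CPM), *Bhlhe41* (29.6), *Ppp1r3c* (49.6), *Pgm1* (323), *Higd1a* (55.3) and *Kat6b* (56 CPM, the others at 40.7 to 42). In *Kat6b-/-* they were *Plekha2* (22.5 CPM in replicate 2, the lowest), *Cdkn2c* (3.17 CPM in replicate 3), the summed *Hox* genes (1120 CPM in replicate 1) and the summed globin and erythroid genes (14525 CPM in replicate 3). *Xist*, outside the protein-coding genes compared, was at 636 and 755 CPM in *Kat6b-/-* replicates 2 and 3, far above the WT libraries (at most 0.173 CPM).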

How the results depend on the processing

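Genes called between *Kat6aE/E;Kat6bE/E* and *Kat6b-/-* numbered 30 in the model of the text. They numbered 1, 2 and 50 with 0, 2 and 6 surrogate variables, 15 and 0 in edgeR with 4 and 0 surrogate variables, 78 and 10 in DESeq2 with 4 and 0, 14 with DESeq2 size factors, 12 with all gene types, 5 with sample weights and 0 in the 8 libraries alone (limma, 559 at an unadjusted p under 0.05). They ranged from 3 (without *Kat6b-/-* replicate 3) to 73 (without *Kat6aE/E;Kat6bE/E* replicate 1) without any 1 library. Without *Kat6b-/-* replicates 1, 2 and 4 there were 7, 5 and 8, without *Kat6aE/E;Kat6bE/E* replicates 2 and 4 in turn 4 and 16, without each *Kat6a-/-* library 5 to 7, without *Kat6aE/E* replicates 1 and 2 53 and 46, and without *Kat6bE/E* replicates 3 and 4 13 and 11. Chosen after seeing the data, leaving out *Kat6aE/E;Kat6bE/E* replicate 2 with 0 or 2 surrogate variables gave 1 and 4 calls, replicates 2 and 4 gave 2 (0 without surrogate variables, 722 at an unadjusted p under 0.05), the other 7 libraries alone gave 0 (903), the *Xist* term gave 0, and omission of the 3 *Xist*-high libraries gave 1 (0 without surrogate variables, 680 at an unadjusted p under 0.05; 2 with replicate 2 also out). The cause was not tested, beyond fewer libraries in the latter fits. *Vegfa* turned to -0.15 and *Pfkfb3* to -0.057 (log2) without replicates 2 and 4, and to -0.19 and -0.087 with 0 surrogate variables as well. No filter gave 31 and no litter block 39 calls.

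Replicate numbers did not pair the samples (correlations of same-numbered deviations -0.091 to 0.084). With a replicate block 20 genes were called, 16 of them among the 30.

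The excess distance of 0.019 was 0.115 (exact permutation p=0.0286) once surrogate variables fitted beside genotype were subtracted, a step that uses the genotypes tested. It ranged from -0.0084 (without *Kat6aE/E;Kat6bE/E* replicate 4) to 0.052 without any 1 library. Genes called between *Kat6a-/-* and WT numbered 375, and 111, 159 and 631 with 0, 2 and 6 surrogate variables and 115 without WT replicate 3. Those between *Kat6aE/E* and WT numbered 39, and 14 and 122 with 0 and 6. With 4 embryos a genotype, genes that were not called may still differ.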
